A study of Mus musculus with 10 samples.

Results

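Integrins and laminins were followed through a mouse model of glioma formation, as the 34 genes of the RNAseq matrix whose symbols name an integrin α or β subunit or a laminin chain. Of the 23230 features listed, 15 were integrin α subunits, 8 were β subunits and 11 were laminin chains, namely 5 α, 3 β and 3 γ chains. *Itgam* and *Itgax* were left out as genes of myeloid cells. Members were taken by name, whatever their values.

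The starting cells, AstroEGFR*, were cortical astrocytes of C57BL/6 mice at postnatal day 5 that lacked p16/p19 (*Ink4a/Arf*) and carried human EGFRvIII, a growth factor receptor that signals without its ligand, from a retroviral vector. They were sequenced as 3 cultures, AstroEGFR*1, AstroEGFR*2 and AstroEGFR*3, 1 from each of 3 astrocyte batches. PT were glioma propagating cells recovered from tumours that such astrocytes had formed in CD1 Nude mice (Cd1-Nude HO in the study's methods), as 4 cultures. Batch 1 gave rise to both PT1 and PT4, batch 2 to PT2 and batch 3 to PT3. This pairing comes from the paper and not from the labels. The third group was AstroEGFR* of the same 3 batches that also carried a vector overexpressing *Zfp423*, a zinc finger transcription factor. All 10 libraries therefore shared the *Ink4a/Arf* deletion and the EGFRvIII vector, all cultures were below passage 10, and there was 1 library per culture. AstroEGFR* were grown in serum, whereas PT were grown without serum, with growth factors and on plates coated with laminin, so that the tumour step, the medium and the laminin coat cannot be told apart in any comparison of PT with AstroEGFR*.

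Integrins are heterodimers of 1 α and 1 β subunit that span the plasma membrane and link the extracellular matrix to the actin cytoskeleton through talin, kindlin and other adaptors. The pair sets the ligand: *Itga3*, *Itga6* and *Itga7* encode α subunits that bind laminin together with the β subunit of *Itgb1*, *Itga1* and *Itga11* encode collagen receptors, and the αv subunit binds ligands that carry an RGD motif, such as vitronectin, fibronectin and latent TGFβ. Laminins are trimers of 1 α, 1 β and 1 γ chain and form the sheet of the basement membrane, which in brain lies around vessels and under the meninges. Glioma cells often spread along vessels, where they meet these laminins.

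Values are FPKM, that is fragments divided by the length of the transcript and by the size of the library, so that levels can be compared between genes. The fragments behind them are unknown, and so is the depth of each library. A low value is given here as listed, since *Hmgcs1*, a gene of cholesterol synthesis, was listed at 0 in 10 of 10 libraries and *Gapdh* at 0.0106 to 50.1 FPKM. Between 6200 and 9155 features per library were listed at 0, and the highest numbers were those of PT3 and AstroEGFR*3, with 9155 and 8417. The vector gene *Zfp423* was listed at 4.30, 3.25 and 3.48 FPKM in batches 1, 2 and 3 of AstroEGFR*, and at 15.7, 9.73 and 105 FPKM in the infected cultures, higher in each batch. Markers of astrocytes were present in every group, but their sum was 57.2 FPKM in AstroEGFR*2 *Zfp423*, against 186 to 1032 FPKM in the other libraries, and *Gfap* was listed at 1.11 FPKM there. Markers of microglia or macrophages summed to 1820 and 1126 FPKM in AstroEGFR*1 *Zfp423* and AstroEGFR*2 *Zfp423* and to between 1.38 and 37.0 FPKM in the other 8 libraries. Markers of fibroblasts or meninges summed to 7477, 7035 and 7526 FPKM in AstroEGFR*3, AstroEGFR*1 *Zfp423* and AstroEGFR*2 *Zfp423* and to between 4.27 and 863 FPKM elsewhere. The 4 T cell markers summed to at most 0.0420 FPKM in any library.

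A few members had the highest levels. *Itgb1*, the β subunit that most laminin, collagen and fibronectin receptors share, was the highest member in each of the 10 libraries. It was listed at 408, 389 and 639 FPKM in AstroEGFR*, at 313, 442, 604 and 315 FPKM in PT and at 288, 522 and 287 FPKM in AstroEGFR* *Zfp423*, and these groups overlapped. *Itgav* had the highest mean of the α subunits, with 97.9, 136 and 63.7 FPKM in AstroEGFR*, 53.5, 50.5, 58.5 and 72.6 FPKM in PT and 82.6, 83.1 and 96.3 FPKM in AstroEGFR* *Zfp423*. Of the laminin chains, *Lamc1* was the highest γ chain in 10 of 10 libraries and *Lamb1* the highest β chain in 9, with *Lamb2* above it in AstroEGFR*1. The highest α chain was *Lama4* in 6 libraries and *Lama5* in 4, namely AstroEGFR*1, PT2, PT3 and AstroEGFR*3 *Zfp423*. Each of these α chains can assemble with *Lamb1* and *Lamc1* into a laminin of vessel walls. *Lamc1* was listed at 100, 99.2 and 102 FPKM in AstroEGFR*, 103, 176, 185 and 89.3 FPKM in PT and 82.4, 90.6 and 77.6 FPKM in AstroEGFR* *Zfp423*. *Lamb1* ranged from 44.5 to 218 FPKM and *Lama4* from 16.6 to 79.2 FPKM over the 10 libraries. In all, 7 members reached at least 10 FPKM in every library (*Itga5*, *Itgav*, *Itgb1*, *Lama4*, *Lamb1*, *Lamb2* and *Lamc1*). At the other end, 6 members stayed below 1 FPKM in all 10 libraries: *Itgae* and *Itgb7*, whose products are best known on T cells, *Itgb6*, the αv partner of epithelia, *Lamc3*, and *Lama3* and *Lamb3*, 2 chains of the laminin under the epidermis.

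**Figure D1:**
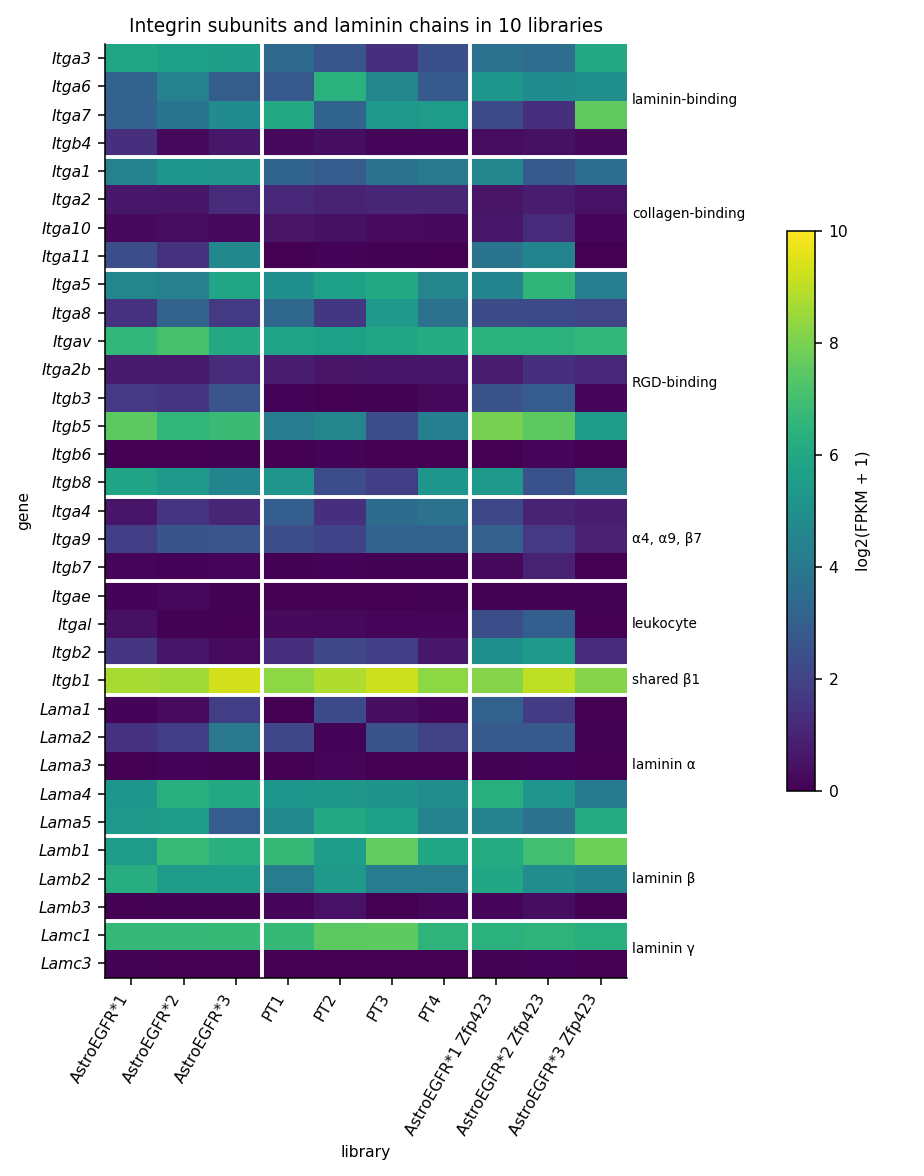
Level of the members reported by name, as log2(FPKM + 1) in colour, with libraries in columns (AstroEGFR*, PT and AstroEGFR* *Zfp423*, separated by white lines) and genes in rows by the ligand or chain they are known for. *Itgb1* is the brightest row in all 10 libraries, while *Itga3* and *Itgb5* are darker in the 4 PT columns than in the 3 AstroEGFR* columns.

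PT and AstroEGFR* were compared first, to ask which adhesion receptors and laminins differ once the astrocytes have passed through a tumour. Of the 34 members, 23 averaged 1 FPKM or more over these 7 libraries and entered the fit with all other features (limma on log2(FPKM + 1), p-values adjusted by the Benjamini-Hochberg method over 12261 features). The adjusted p was below 0.05 for 2 of the 23 members, against 1.24% of all features tested, and both fell in PT (0.922% of all features were lower by this test). These were *Itga3*, the α subunit of a laminin receptor, and *Itgb5*, a partner of αv in a receptor for vitronectin. At an unadjusted p below 0.05 there were 8 members lower and 1 higher, against 7.69% and 5.88% of all features. The libraries of PT and AstroEGFR* did not overlap for 7 members, each lower in PT, against 7.81% of all features that were lower without overlap, and 0 members were higher without overlap, against 6.95%. Among the 7, *Itga11* and *Itgb3* averaged below 1 FPKM in PT. They entered the fit only through AstroEGFR*, so that their direction was fixed by the filter. The median log2 fold change was −0.21 over the 23 members and 0.03 over all features. The 11 members under the filter were *Itga2*, *Itga2b*, *Itga10*, *Itgae*, *Itgal*, *Itgb4*, *Itgb6*, *Itgb7*, *Lama3*, *Lamb3* and *Lamc3*.

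*Itga3* was listed at 58.8, 48.9 and 47.3 FPKM in AstroEGFR* of batches 1, 2 and 3, whereas PT1, PT2, PT3 and PT4 had 9.59, 5.43, 1.62 and 4.47 FPKM. The highest PT culture thus lay well under the lowest AstroEGFR* culture, and the mean was 51.7 ± 6.23 FPKM (SD, n = 3) against 5.28 ± 3.30 FPKM (SD, n = 4), a ratio of 9.79. Its log2 fold change was −3.23 ± 0.44 (SE, limma, adjusted p = 0.0200), and the difference within batches was −2.50 and −3.45 for PT1 and PT4, −2.96 for PT2 and −4.20 for PT3. The exact permutation test over libraries gave a two-sided p of 0.0286 before any adjustment, which is the smallest it can give with 3 cultures against 4. Groups without overlap put this p at or near its floor, so that it adds no support to the lack of overlap. The test also treats the libraries as independent, although PT1 and PT4 share a batch. Leaving out AstroEGFR*1, AstroEGFR*2, AstroEGFR*3, PT2 or PT4 each took the adjusted p above 0.05, to 0.116 at most, with a log2 fold change between −3.54 and −2.87 over all 7 omissions.

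*Itgb5* was listed at 177, 95.4 and 111 FPKM in AstroEGFR* and at 17.2, 22.7, 4.11 and 18.6 FPKM in PT. The mean was 128 ± 43.7 FPKM (SD, n = 3) against 15.7 ± 8.05 FPKM (SD, n = 4), a ratio of 8.16, and again no culture of one group reached the range of the other. Its log2 fold change was −3.11 ± 0.55 (SE, limma, adjusted p = 0.0474), with −3.30, −3.18, −2.02 and −4.45 for PT1, PT4, PT2 and PT3 against their own batch. This adjusted p was close to the threshold. It rose to 0.0514 with a pseudocount of 0.1 and to 0.0872 without the filter, and it lay between 0.0264 and 0.223 over the 7 omissions of 1 library, below 0.05 only without PT3. Without both libraries of batch 3, which had the most features listed at 0, the adjusted p was 0.0822 for *Itga3* and 0.0862 for *Itgb5*, with log2 fold changes of −2.93 and −2.69. With the astrocyte batch as a block, which pairs each PT with the astrocytes it came from, the adjusted p was 0.0187 for *Itga3* and 0.0277 for *Itgb5*, and 3 members passed, against 3.87% of all features called by that fit.

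The stretch around the start of transcription is shown for these 2 genes because they are the members that passed the test in PT. The windows are those of RefSeq on GRCm38.p6, 250 bases before to 50 after a start site, whereas the authors' notes name mm9, so that no position in the expression matrix is implied. *Itga3* has 2 such windows, at chr11:95076665-95076964 and chr11:95069149-95069448 on the minus strand, and *Itgb5* has 1, at chr16:33829415-33829714 on the plus strand. Capitals mark a match to TGANTCA, a loose form of the AP-1 site that takes any base in the middle, where the usual site has C or G. It was searched on both strands together with GGAATG, the letters of a TEAD site, and the CArG box of SRF.
Itga3, first window: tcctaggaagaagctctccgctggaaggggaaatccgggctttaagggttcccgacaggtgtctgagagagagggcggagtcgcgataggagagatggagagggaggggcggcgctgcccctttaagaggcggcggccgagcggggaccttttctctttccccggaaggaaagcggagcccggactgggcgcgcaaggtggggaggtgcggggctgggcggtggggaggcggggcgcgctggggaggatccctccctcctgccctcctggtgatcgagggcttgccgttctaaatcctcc
Itga3, second window: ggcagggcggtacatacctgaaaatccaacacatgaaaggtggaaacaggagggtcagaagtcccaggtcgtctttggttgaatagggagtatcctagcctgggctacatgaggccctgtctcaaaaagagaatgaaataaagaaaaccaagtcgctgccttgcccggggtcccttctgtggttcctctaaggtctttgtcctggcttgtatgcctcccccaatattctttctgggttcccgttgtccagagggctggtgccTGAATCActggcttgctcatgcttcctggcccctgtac
Itgb5: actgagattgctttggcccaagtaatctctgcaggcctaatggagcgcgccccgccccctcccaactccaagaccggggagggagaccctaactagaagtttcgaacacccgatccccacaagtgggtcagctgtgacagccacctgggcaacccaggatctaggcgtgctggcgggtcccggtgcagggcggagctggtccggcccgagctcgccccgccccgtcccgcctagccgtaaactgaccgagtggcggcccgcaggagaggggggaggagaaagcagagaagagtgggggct
The first *Itga3* window and the *Itgb5* window held 24 and 20 CpG dinucleotides, against a median of 7 over 32851 windows of this length, and none of the 3 motifs. The second *Itga3* window held 5 CpG and 1 match to TGANTCA, which reads TGAATCA and so is not the usual AP-1 site. Of all windows, 7.81% contain TGANTCA, while GGAATG was present in 14.7% and the CArG box in 1.63%. Windows were found for 21 of the 34 members.

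Of the laminin-binding subunits, *Itga3* alone passed the test, and the others varied widely between cultures of the same group. *Itga6*, the partner of *Itgb1* in a receptor of neural stem and glioma cells, was listed at 8.02, 20.1 and 6.78 FPKM in AstroEGFR*, while PT1 to PT4 had 5.78, 83.5, 22.5 and 6.17 FPKM, with a log2 fold change of 0.63 ± 0.89 (SE). *Itga7*, best known in muscle, was listed at 7.93, 13.8 and 27.6 FPKM in AstroEGFR* and at 63.8, 8.29, 39.1 and 44.3 FPKM in PT, with a log2 fold change of 1.05 ± 0.70 (SE). Neither passed the test (adjusted p = 0.832 and 0.580, limma) and the groups overlapped. *Itgb4*, whose product pairs with the α6 subunit in hemidesmosomes, was listed at 0.201 to 1.59 FPKM in AstroEGFR* and at 0.120 to 0.302 FPKM in PT, under the filter.

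Summed over *Itga3*, *Itga6* and *Itga7*, the laminin-binding α subunits came to 74.8, 82.9 and 81.7 FPKM in AstroEGFR* and to 79.2, 97.3, 63.3 and 54.9 FPKM in PT, and these sums overlapped. *Itga3* made up 78.7%, 59.0% and 57.9% of this sum in AstroEGFR* and 12.1%, 5.59%, 2.56% and 8.13% in PT, without overlap, whereas the shares of *Itga6* and *Itga7* overlapped between the groups. The largest part in PT was *Itga7* in PT1, PT3 and PT4, with 80.6%, 61.8% and 80.6%, and *Itga6* in PT2, with 85.9%. These shares describe RNA and were not tested.

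**Figure D2:**
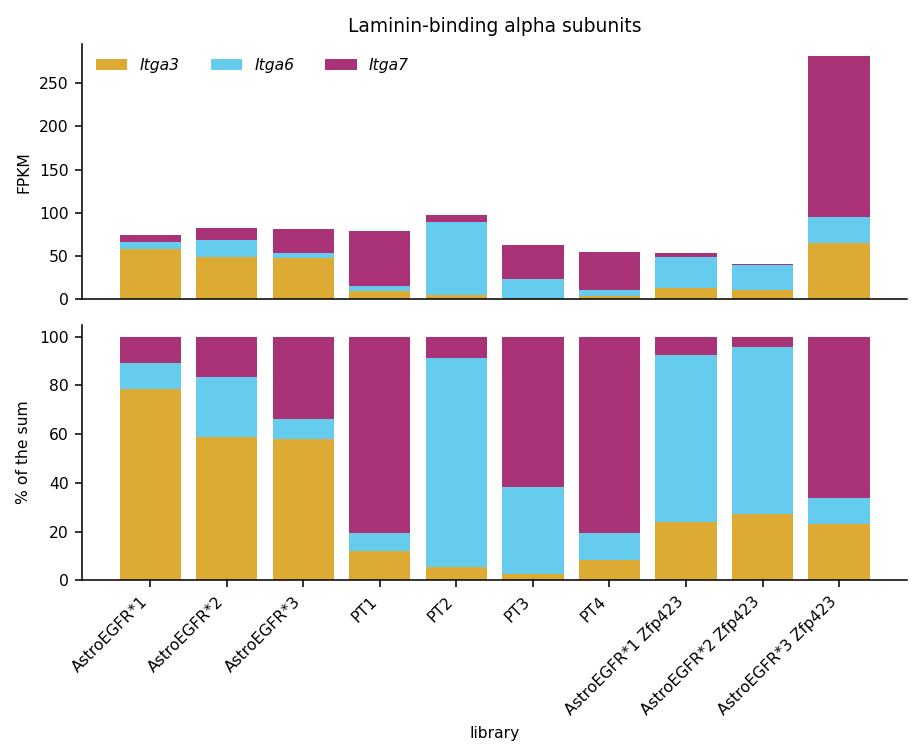
Sum of the 3 laminin-binding α subunits in FPKM (top) and the share of each in percent of that sum (bottom), 1 bar per library. *Itga3* is the largest share in the 3 AstroEGFR* libraries and in no other library, and the bar of AstroEGFR*3 *Zfp423* stands apart at 281 FPKM.

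Both tested collagen-binding subunits were lower in PT without overlap, which is 2 of 2 against 7.81% of all features, although neither passed the test over all features. *Itga11*, with means of 9.96 FPKM in AstroEGFR* and 0.0341 FPKM in PT, entered the fit only through AstroEGFR* and could only come out lower. *Itga1*, the receptor subunit for basement membrane collagen, was listed at 20.2, 37.2 and 36.3 FPKM in AstroEGFR* and at 8.44, 6.42, 12.1 and 15.3 FPKM in PT (log2 fold change −1.50 ± 0.36 SE, adjusted p = 0.109, limma). *Itga11*, a receptor subunit for fibrillar collagen of fibroblasts, was listed at 4.11, 1.70 and 24.1 FPKM in AstroEGFR* and at 0.00935, 0.0591, 0.0490 and 0.0189 FPKM in PT (−2.76 ± 0.71 SE, adjusted p = 0.132). With a pseudocount of 0.1 its log2 fold change was −5.42 (adjusted p = 0.0555, limma), so that its size depends on the pseudocount. The AstroEGFR* values of *Itga11* thus differed from each other more than those of *Itga1*, and the highest was that of AstroEGFR*3. *Itga2* and *Itga10* were below the filter, with 0.519 to 1.32 FPKM and 0.157 to 0.430 FPKM over the 7 libraries. Their means were not lower in PT, with 0.799 FPKM in AstroEGFR* and 1.09 FPKM in PT for *Itga2* and 0.207 and 0.300 FPKM for *Itga10*, and the libraries overlapped. The lower levels of *Itga1* and *Itga11* thus do not extend to all collagen-binding subunits. Beside these values, the 8 markers of fibroblasts or meninges had a negative log2 fold change in 8 of 8 cases, of which *Pdgfrb*, a receptor of mural cells and fibroblasts, passed the test (−4.14 ± 0.57 SE, adjusted p = 0.0200). Their sum was 863, 633 and 7477 FPKM in AstroEGFR* and 54.4, 4.27, 486 and 17.3 FPKM in PT, and 0 of the 8 were listed at 0 in any of these libraries. Fewer cells of a type and less RNA per cell cannot be told apart in such bulk libraries, and the part of these markers in the results on *Itga11* and the other members was not tested.

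Of the 6 tested subunits that bind RGD ligands, *Itgb5* and *Itgb3* were lower in PT without overlap, against 7.81% of all features. *Itgb3*, with means of 3.08 FPKM in AstroEGFR* and 0.0660 FPKM in PT, entered the fit only through AstroEGFR* and could only come out lower. *Itgb3*, the β subunit of the αv receptor of angiogenic vessels and of the platelet receptor, was listed at 2.17, 1.86 and 5.22 FPKM in AstroEGFR* and at 0.0576, 0.0157, 0.0416 and 0.149 FPKM in PT (log2 fold change −1.85 ± 0.39 SE, adjusted p = 0.0802, limma). *Itgb3* passed the threshold only when the mean-variance trend was left out of the fit (adjusted p = 0.0406). With a pseudocount of 0.1 its log2 fold change was −4.17 (adjusted p = 0.0741, limma), so that its size depends on the pseudocount. *Itgb8*, a β subunit of astrocytes that activates latent TGFβ with αv, was listed at 55.5, 41.3 and 21.5 FPKM in AstroEGFR*, at 36.4 and 36.7 FPKM in PT1 and PT4 and at 4.2 and 2.65 FPKM in PT2 and PT3 (−1.56 ± 0.92 SE, adjusted p = 0.525). The 2 PT cultures of batch 1 were therefore alike in *Itgb8* and lay within the range of AstroEGFR*, and those of batches 2 and 3 lay under it. Beside this, the 7 markers of the oligodendrocyte lineage summed to 1357 and 1689 FPKM in PT1 and PT4, against 145 and 131 FPKM in PT2 and PT3 and 66.8 to 223 FPKM in AstroEGFR*, with 6, 3, 2 and 7 of them at 1 FPKM or more in PT1 to PT4, and their part in the levels of *Itgb8* was not tested. *Itgav* itself had a log2 fold change of −0.69 ± 0.30 (SE, adjusted p = 0.377). The β subunits that pair with αv other than that of *Itgb1* summed to 235, 139 and 137 FPKM in AstroEGFR* and to 53.6, 27.0, 6.8 and 55.5 FPKM in PT. Of this sum, *Itgb8* made up 67.9%, 15.6%, 39.0% and 66.1% in PT1 to PT4 and 15.7% to 29.8% in AstroEGFR*, with overlap.

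*Itga5*, of the classical fibronectin receptor, and *Itga8*, of a receptor for nephronectin and other RGD ligands, had log2 fold changes of 0.41 ± 0.49 and 1.43 ± 0.85 (SE, adjusted p = 0.795 and 0.528). *Itga4*, a subunit known for binding VCAM1 and fibronectin, was the 1 member higher in PT at an unadjusted p below 0.05. It was listed at 0.529, 1.85 and 1.11 FPKM in AstroEGFR* and at 7.0, 10.7 and 12.2 FPKM in PT1, PT3 and PT4, whereas PT2 had 1.52 FPKM, within the range of AstroEGFR*. Its log2 fold change was 1.84 ± 0.60 (SE, unadjusted p = 0.0160, adjusted p = 0.231, limma), and the adjusted p was 0.0526 without PT2. *Itga9*, its closest relative among the α subunits, was between 2.56 and 7.80 FPKM in all 7 libraries. *Itgb1*, with a log2 fold change of −0.21 ± 0.37 (95% interval −1.07 to 0.65), did not pass the test, and its share of all β subunit FPKM was 63.1%, 73.6% and 82.2% in AstroEGFR* and 84.9%, 93.5%, 98.4% and 84.8% in PT.

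**Figure D3:**
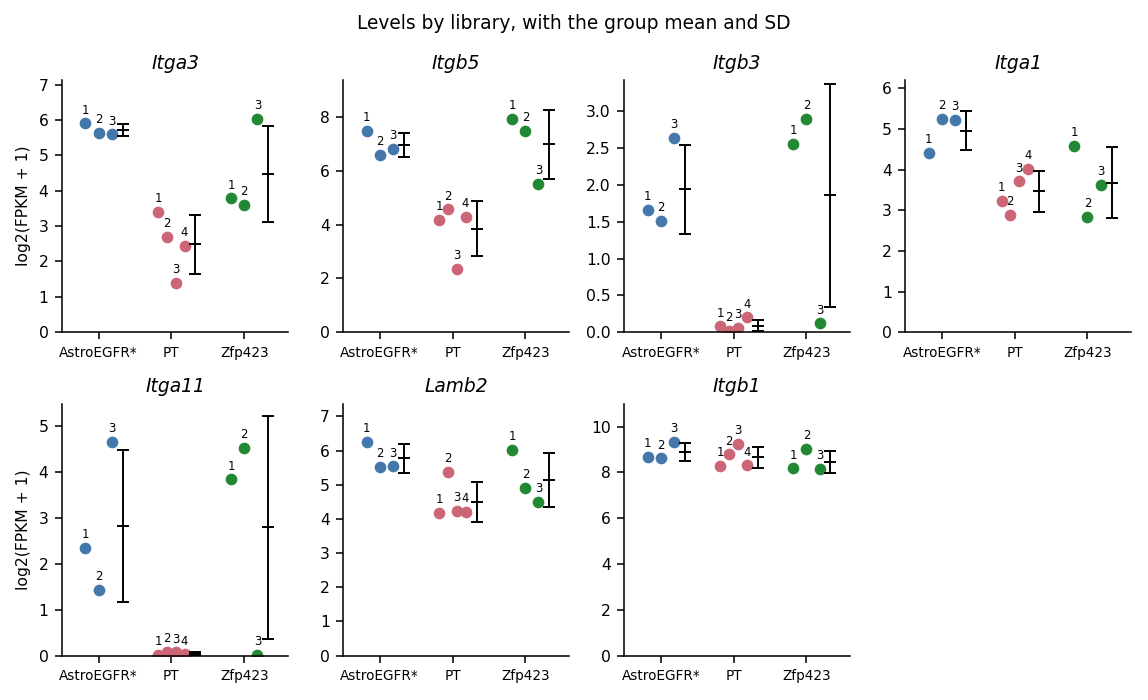
Level as log2(FPKM + 1) of 6 of the 7 members whose PT and AstroEGFR* libraries do not overlap, and of *Itgb1*, with 1 point per library numbered by culture and a bar for the mean and SD of each group (n = 3, 4 and 3). The 4 PT points of the first 6 panels lie under the 3 AstroEGFR* points, *Lamb2* having PT2 just under them, and the infected culture of batch 3 lies near PT for *Itgb3* and *Itga11*.

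Of the laminin chains, 8 were tested, and 0 passed without the block, while 3 had an unadjusted p below 0.05, each lower in PT, *Lama4* and *Lamb2* among them, against 7.69% of all features. *Lama3* and *Lamb3* were at most 0.132 and 0.412 FPKM in any library. *Lamb2*, the β chain of vessel and synaptic laminins, was listed at 75.1, 45.2 and 45.4 FPKM in AstroEGFR* and at 17.2, 40.5, 17.8 and 17.5 FPKM in PT (log2 fold change −1.27 ± 0.37 SE, adjusted p = 0.175, limma). PT2 stood apart from the other PT in *Lamb2* and came near the lowest AstroEGFR* culture. The main β chain, *Lamb1*, was listed at 44.5, 104 and 79.6 FPKM in AstroEGFR* and at 103, 46.5, 195 and 60.2 FPKM in PT, with overlap, and it made up 37.2% to 69.8% of the β chain FPKM in AstroEGFR* and 53.2% to 91.6% in PT.

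The α chains overlapped between the groups. *Lama4*, the α chain of vessel and mesenchymal laminin, was listed at 37.0, 77.3 and 64.1 FPKM in AstroEGFR* and at 36.8, 38.3, 34.9 and 29.0 FPKM in PT, and *Lama5*, the α chain of mature basement membranes, at 42.0, 44.5 and 6.48 FPKM and at 25.2, 64.9, 49.7 and 20.3 FPKM. PT3 had more *Lama5* than the AstroEGFR*3 culture of its own batch by 2.76 on the log2 scale, whereas PT1 and PT4 had less than AstroEGFR*1, by −0.72 and −1.01. *Lama2*, the α chain of muscle and of meningeal cells, reached 15.3 FPKM in AstroEGFR*3 and lay between 0.0777 and 4.88 FPKM in the other libraries of this comparison. *Lama1*, the α chain of the early embryo, lay above 1 FPKM only in AstroEGFR*3 and PT2 of these 7 libraries, with 2.62 and 3.71 FPKM. The log2 fold changes of the 4 tested α chains lay between −0.77 and 0.60, and none passed the test. Exons of *Itga1*, *Itga4*, *Itga7*, *Itga8*, *Itgb4*, *Lama2*, *Lama3* and *Lamc3* overlap those of another annotated gene over 0.217% to 8.41% of their length, and those of *Itga10* over 34.5%, and how reads there were assigned is not given in the sources used here.

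The genes around the members were taken from lists of adaptors, partners and ligands. Of 30 integrin adaptors and focal adhesion genes, 27 were tested, 1 rose and 1 fell in PT, against 0.318% and 0.922% of all features, and the median log2 fold change was −0.89, against 0.03 over all features. *Fyn*, a Src family kinase that acts downstream of integrins in glia, was listed at 35.3, 33.7 and 45.5 FPKM in AstroEGFR* and at 128, 115, 152 and 171 FPKM in PT (log2 fold change 1.86 ± 0.24 SE, adjusted p = 0.0175, limma). *Nedd9*, a docking protein of the focal adhesion kinase, was listed at 37.2, 45.2 and 31.5 FPKM in AstroEGFR* and at 5.95, 7.71, 2.08 and 7.09 FPKM in PT (−2.63 ± 0.39 SE, adjusted p = 0.0274). Besides these, 7 adaptor genes were lower in PT without overlap and did not pass the test, so that 8 of 27 were lower without overlap, against 7.81% of all features. Among the 7 were *Vcl*, encoding vinculin (−1.55 ± 0.33 SE, adjusted p = 0.0818), and *Actn1*, encoding an actinin that crosslinks actin (−2.82 ± 0.60 SE, adjusted p = 0.0802). With the batch as a block 8 of the 27 passed, against 3.87% of all features, *Actn1* among them (adjusted p = 0.0320). The markers of fibroblasts or meninges, whose sums are given above, were lower in PT in 8 of 8 cases, and their part in the values of the adaptors was not tested.

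Of the 10 basement membrane partners of laminin, 0 passed the test, 6 were lower and 1 was higher at an unadjusted p below 0.05, against 7.69% and 5.88% of all features, 9 had a negative log2 fold change, and the median was −1.38. With the batch as a block 1 of the 10 passed, against 3.87% of all features, namely *Nid2* (adjusted p = 0.0300, limma). The libraries did not overlap for *Nid1*, *Nid2*, *Hspg2*, *Col4a1* and *Col4a2*, which encode the nidogens, perlecan and the chains of collagen IV that bind or lie under the laminin sheet, all lower in PT, which is 5 of 10 against 7.81% of all features. Of the 8 markers of fibroblasts or meninges, 4 were also lower in PT without overlap, and their part in these values was not tested. *Nid1* was listed at 19.1, 2.01 and 78.6 FPKM in AstroEGFR* and at 0.0455, 0.0390, 0.218 and 0.0480 FPKM in PT (log2 fold change −3.96 ± 0.96 SE, adjusted p = 0.115, limma). It entered the fit only through AstroEGFR* and could only come out lower. Of the 7 other laminin receptors, such as dystroglycan, encoded by *Dag1* (log2 fold change −0.20 ± 0.40 SE), 0 passed, 1 was lower at an unadjusted p below 0.05, against 7.69% of all features, and the median was −0.20. Of 15 integrin ligands other than laminins, 13 were tested, and 2 fell and 0 rose, against 0.922% and 0.318% of all features. Without overlap, 5 were lower and 2 higher, against 7.81% and 6.95% of all features, and the median was −1.64. The 2 that fell, *Cyr61* and *Ctgf*, encode matricellular proteins that bind αv and other integrins. *Cyr61* was listed at 301, 317 and 416 FPKM in AstroEGFR* and at 9.40, 6.75, 22.6 and 10.1 FPKM in PT (−4.83 ± 0.39 SE, adjusted p = 0.00471), and *Ctgf* at 297, 82.3 and 370 FPKM and at 4.56, 2.78, 20.0 and 4.07 FPKM (−4.93 ± 0.72 SE, adjusted p = 0.0260). *Tnc*, encoding tenascin C, was higher in PT without overlap (2.21 ± 0.71 SE, adjusted p = 0.222, and 0.0449 with the batch as a block). With the block 6 of the 13 ligands passed, against 3.87% of all features, namely *Cyr61*, *Ctgf*, *Tnc*, *Fn1*, *Postn* and *Tgfb3*.

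**Figure D4:**
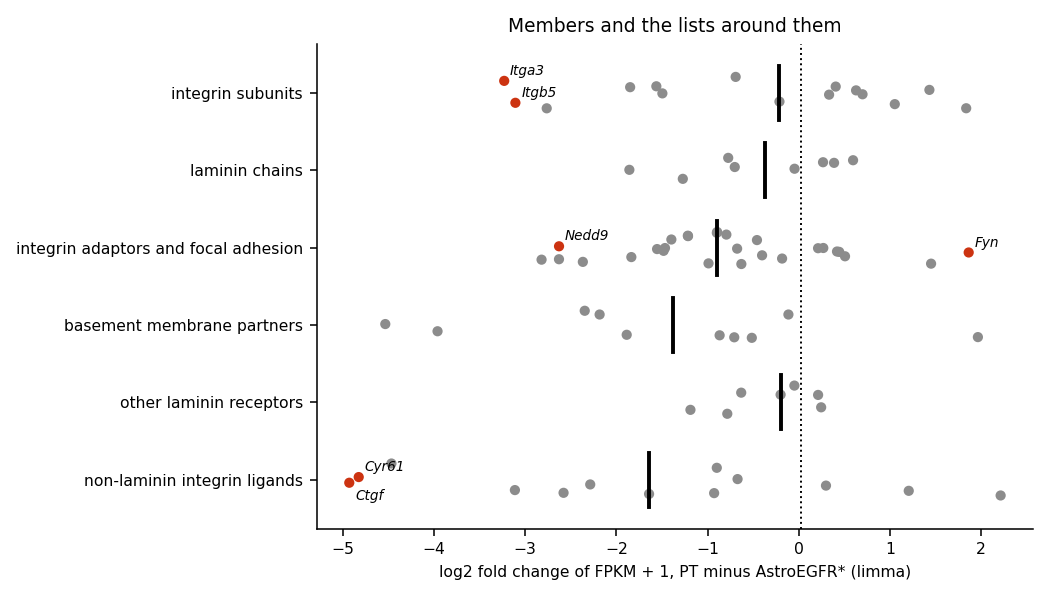
Log2 fold change between PT and AstroEGFR* (limma, on FPKM + 1) of each tested gene, with integrin subunits and laminin chains above and 4 lists of adaptors, partners and ligands below. Red points passed an adjusted p of 0.05 and are named, thick bars are list medians, and the dotted line is the median of all features, 0.03.

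The infected cultures were compared with AstroEGFR* of the same batch, to ask whether these genes differ in cultures that carry the *Zfp423* vector. Those of batches 1 and 2 held markers of microglia or macrophages, as given above, so that their values cannot be assigned to astrocytes alone. With the batch as a block, 25 members were tested and 0 passed (limma), as did 0% of 12366 features. At an unadjusted p below 0.05 there were 2 members, both higher, against 7.38% of all features in either direction. Without the block, 0 members and 2 features passed, which is 0.0162%. The sign-flip permutation over 3 batches cannot give a p below 0.25. Changes of at least 1 on the log2 scale were nevertheless frequent in each single pair. They were seen for 11 of 25 members in batch 1, 12 in batch 2 and 15 in batch 3, against 19%, 24.3% and 26.2% of all features. In batch 1 there were 9 higher and 2 lower, against 11.2% and 7.83% of all features. Batch 2 had 6 higher and 6 lower, against 12.3% and 12%, and batch 3 had 4 higher and 11 lower, against 9.7% and 16.5%. The 3 batches agreed in sign for 8 of 25 members, against 31.6% of all features, and 0 members moved by at least 1 in the same direction in all 3, against 1.22%.

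The 2 members of lowest unadjusted p were *Itgb2* and *Itga6*. *Itgb2*, the β subunit shared by the integrins of leukocytes and microglia, was listed at 2.0, 0.483 and 0.228 FPKM before infection in batches 1, 2 and 3, and at 31.8, 39.9 and 1.37 FPKM after it (log2 fold change 3.06 ± 0.83 SE, adjusted p = 0.628, limma). *Itgal*, which pairs with it in the LFA-1 receptor, was listed at 0.364, 0.0476 and 0 FPKM and at 4.23, 6.91 and 0.00387 FPKM (1.62 ± 0.73 SE, adjusted p = 0.641). Both were high in the infected cultures of batches 1 and 2 and low in that of batch 3. Of the 12 microglia or macrophage markers, 12 were at 1 FPKM or more in AstroEGFR*1 *Zfp423* and AstroEGFR*2 *Zfp423*, with *Csf1r* at 202 and 108 FPKM and *C1qa* at 433 and 290 FPKM, whereas 1 was in AstroEGFR*3 *Zfp423*, where 5 were listed at 0, *C1qa* among them. Their part in the result on *Itgb2* and *Itgal* was not tested.

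*Itga6* was listed at 36.7, 28.2 and 30.3 FPKM after infection, against 8.02, 20.1 and 6.78 FPKM before, so that every infected culture was above every uninfected one (log2 fold change 1.51 ± 0.41 SE, adjusted p = 0.628, limma). The difference was 2.06 in batch 1, 0.47 in batch 2 and 2.01 in batch 3. *Lamc1* was the other member without overlap, lower after infection by −0.28, −0.13 and −0.39 in the 3 batches, and 2 members without overlap compare with 11.5% of all features. *Itga3* was listed at 12.7 and 11.1 FPKM in AstroEGFR*1 *Zfp423* and AstroEGFR*2 *Zfp423* and at 64.7 FPKM in AstroEGFR*3 *Zfp423* (−1.24 ± 0.61 SE, adjusted p = 0.652), which left the first 2 below every AstroEGFR* culture and the last above them. *Itga7* took the same course, with 3.90, 1.63 and 186 FPKM, the last being the highest level of any α subunit in the 10 libraries. As a share of the 3 laminin-binding α subunits, *Itga3* was 23.9%, 27.1% and 23.0% in the infected cultures, below the 57.9% to 78.7% of AstroEGFR*, with *Itga6* leading in batches 1 and 2 (68.8% and 69.0%) and *Itga7* in batch 3 (66.2%). Beside these values, astrocyte markers summed to 515, 422 and 1032 FPKM before and 186, 57.2 and 871 FPKM after infection. Microglia or macrophage markers summed to 18.6, 4.14 and 4.27 FPKM before and 1820, 1126 and 1.38 FPKM after it. The part of either set in these differences was not tested. *Itgb5*, which fell in PT, was listed at 244, 178 and 44.8 FPKM after infection (0.02 ± 0.51 SE, adjusted p = 0.993).

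Batch 3 went against batches 1 and 2 for several members. *Itga11* and *Lama1* were higher by at least 1 on the log2 scale in batches 1 and 2 and lower by at least 1 in batch 3, a course that 2.54% of all features followed. *Itga11* was listed at 13.3, 22 and 0.0164 FPKM after infection, against 4.11, 1.70 and 24.1 FPKM before, and *Lama1* at 7.56, 2.45 and 0 FPKM, against 0.0657, 0.227 and 2.62 FPKM. *Itgb3* and *Lama2* had the same signs, with 4.91, 6.47 and 0.0871 FPKM and 6.14, 5.85 and 0.0553 FPKM after infection. *Lama5* had the opposite ones, with 20.9, 12.4 and 69.7 FPKM after infection and 42.0, 44.5 and 6.48 FPKM before. Beside them, the markers of fibroblasts or meninges summed to 863, 633 and 7477 FPKM before and to 7035, 7526 and 229 FPKM after infection, 7, 7 and 0 of the 8 being higher in the 3 batches, and their part in these differences was not tested. Of the lists of adaptors, basement membrane partners, other laminin receptors and other ligands, 29, 10, 7 and 14 genes were tested and 0 of each passed, with 3, 1, 1 and 0 at an unadjusted p below 0.05, against 7.38% of all features, and with medians of 0.02, −0.22, −0.33 and −0.18, against 0.02 over all features.

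**Figure D5:**
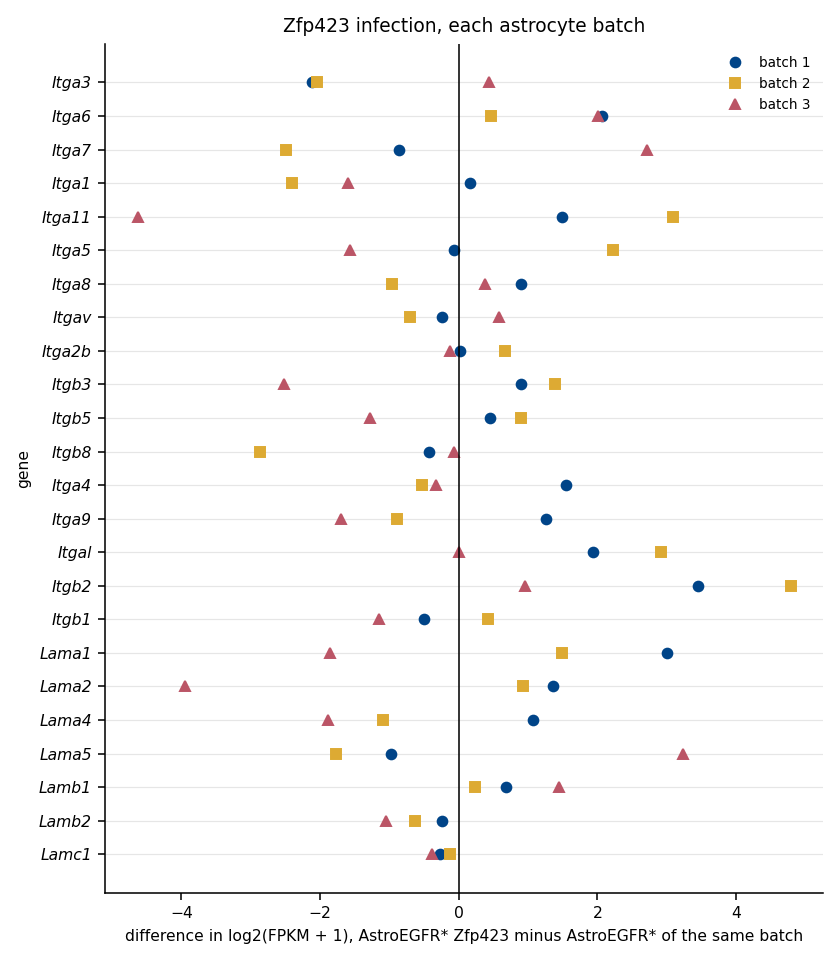
Difference in log2(FPKM + 1) between AstroEGFR* *Zfp423* and AstroEGFR* of the same batch for the tested members reported by name, 1 symbol per batch. *Itga6*, *Itgb2* and *Lamb1* lie to the right of 0 in all 3 batches, and *Itga11*, *Itgb3*, *Lama1* and *Lama2* lie to the right in batches 1 and 2 and to the left in batch 3.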

How the data were processed

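RNAseq values of 10 libraries were analysed, 3 of AstroEGFR*, 4 of PT and 3 of AstroEGFR* *Zfp423*. What the authors deposited was 1 table of FPKM, with a gene symbol per feature, and every column of samples was used. The submitters' processing notes name TopHat 1.3, Cuffnorm and the assembly mm9, with no roles given. Labels and methods differ on the library kit (TruSeq RNA, or stranded after removal of ribosomal RNA) and on the *Zfp423* vector (lentiviral, or retroviral).

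Features that averaged 1 FPKM or more in a comparison were tested on log2(FPKM + 1) with limma 3.58.1 in R 4.3.3 (linear model, empirical Bayes with trend), with Benjamini-Hochberg adjustment over all of them and a threshold of 0.05. With the pseudocount of 1, fold changes of low genes come out too small. PT and AstroEGFR* were compared without a block and AstroEGFR* *Zfp423* and AstroEGFR* with the astrocyte batch as a block. Each PT and infected culture shares its batch with 1 AstroEGFR* culture. Deviations from the group means correlated at 0.347 to 0.500 between PT and AstroEGFR* of the same batch and at −0.341 to −0.0919 between others, and at 0.239, −0.110 and −0.261 between infected and uninfected cultures of batches 1, 2 and 3. Across batches the latter lay between −0.230 and 0.305. The value was 0.305 for AstroEGFR*2 *Zfp423* with AstroEGFR*3 and 0.223 for AstroEGFR*3 *Zfp423* with AstroEGFR*2. In these deviations, infected cultures 2 and 3 were thus closer to each other's uninfected culture than to their own, for which the cause was not tested. The p-values measure the spread between these cultures, and with no counts the precision that depth gives is unknown.

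Members and lists were chosen with earlier results of these data known. Full values were given for members with an adjusted p below 0.05, for those whose PT and AstroEGFR* libraries did not overlap with a log2 fold change of at least 1, for those that moved by at least 1 the same way in 3 batches with *Zfp423*, and for the highest member of each class. Others, such as *Itga4*, *Itga6*, *Itga7*, *Itgb8*, *Itgb2* and *Itgal*, were named after their values were seen. The values of 1 member and 1 adaptor gene are not reported here, although counts and medians include them. Promoter windows were taken from RefSeq on GRCm38.p6 and exon overlaps from GENCODE vM21. Alternatives were a pseudocount of 0.1, no filter, median-ratio scaling, 805 small non-coding RNA and histone features left out, no trend, all 10 libraries in 1 fit, a fold change of at least 2, no batch 3, the other choice of block, PT1 and PT4 averaged, and each library left out.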

Additional observations from a re-analysis of the deposited data

Results flagged for a closer look

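*Lamb2*, the laminin β chain of vessels and synapses, was flagged because 1 of the 4 PT cultures lay far from the other 3. PT2 was listed at 40.5 FPKM, against 17.2, 17.8 and 17.5 FPKM in PT1, PT3 and PT4, and its gap to the nearest of these was 0.962 of the whole range of the group on the log2(FPKM + 1) scale. Of the 23 members tested in PT, 1 was flagged in this way on the log2 scale and 2 in FPKM, where *Lama1* was added with PT2 at 3.71 FPKM and a gap of 0.916, and chance alone flags about 1 in 20 groups of this size. Without PT2 the log2 fold change of *Lamb2* was −1.56, against −1.27 with it, and the adjusted p stayed above 0.05 (0.0716, limma).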

How the results depend on the processing

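Direction was kept by *Itga3* and *Itgb5* under every alternative that was run, and their call was not. The number of members that passed in PT was 2, and it became 1 with a pseudocount of 0.1, without the filter and with PT1 and PT4 averaged, each time *Itga3*, and 0 with all 10 libraries in 1 fit and without batch 3. It was 3 without the trend, with *Itgb3* added, and 3 with the astrocyte batch as a replicate block. Leaving out 1 library gave 0 to 2 members. All features that passed numbered 152, 62 with all 10 libraries in 1 fit, 8 without batch 3, 475 with the replicate block, 59 with PT1 and PT4 averaged, and 7 to 123 with 1 library left out, the lowest without AstroEGFR*1. For *Zfp423*, 0 members passed under any alternative, while the features that passed numbered 0, 2 with no replicate block and 0 to 60 with 1 library left out, of which 47 without AstroEGFR*2 and 60 without AstroEGFR*2 *Zfp423*. Of 361 values of single members in PT under an alternative, 18 lost and 2 gained the threshold and 0 reversed, and of 345 for *Zfp423* none did either. The sign of a log2 fold change that had not passed the test changed under at least 1 alternative for 6 of 23 members in PT and 13 of 25 with *Zfp423*, among them *Lama2*, between −1.51 and 1.15 with *Zfp423*, and *Lama5*, between −0.41 and 1.04 in PT. The replicate block changed the call of 1 member in PT and of none with *Zfp423*. Fewer libraries in a fit leave fewer degrees of freedom, and the cause of the other shifts was not tested. Depth is unknown, so that values near 0, such as those of *Itga11* and *Itgb3* in PT, are as listed.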
